A study of Mus musculus with 30 samples.

Results

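The genes described here are 52 that carry out mitosis: the kinases and cyclins that start it, the kinesins and other proteins that build the spindle, the kinetochore that ties chromosomes to it, and the proteins that split the cell. They were chosen by name and by function, with earlier results of these data known, and fall into 9 roles. Of the 52, 51 had a probe set with 1 gene symbol, out of 19937 such genes on the array. Ccnb1 had none and was not analysed here.

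The cells were B cells sorted from mesenteric lymph nodes of CeGFP BALB/c mice on day 10 of infection with the intestinal worm Nippostrongylus brasiliensis. All groups share the infection and the knock-in, an IRES-GFP cassette at the 3' end of the membrane IgE transcript. GFP therefore marks IgE cells, and also IgG1 cells that rearranged the epsilon locus on the chromosome they do not express. Cells of 3 mice were pooled for each sample, and each pool was sorted separately, so single mice cannot be seen. The first experiment, on 18 arrays, held B220+ CD95+ CD138- germinal centre (GC) cells, CD95+ CD138+ plasma cells (PC) and naive cells (B220+, CD95-, CD138-, without IgG1 or IgE; 3 arrays). The GC cells were IgG1 GFP- (3 arrays), IgG1 GFP+ (3) or IgE GFP+ (3), and the plasma cells IgG1 GFP+ (2) or IgE GFP+ (4). The second experiment, on 12 arrays, split IgG1 GC cells into dark zone (DZ; CXCR4 high, CD86 low) and light zone (LZ; CXCR4 low, CD86 high), each GFP+ and GFP- with 3 arrays. The sources used here do not say whether all groups were normalised in 1 run, and levels are never compared between the experiments.

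Mitosis begins when the kinase CDK1, bound to cyclins and switched on by CDC25 phosphatases, is joined by the Polo, Aurora and NEK kinases. Microtubules then attach to kinetochores, protein plates built on the centromere, while the spindle checkpoint holds back anaphase until every chromosome is attached. The anaphase-promoting complex, activated by CDC20, ends the wait by destroying securin and cyclin B, which frees separase. Most of these transcripts are made mainly from G2 to mitosis, so their level in a mixed population depends in part on how many cells are about to divide. Germinal centre B cells are among the fastest dividing mammalian cells, and are held to divide in the dark zone and to be selected in the light zone. Plasma cells at first still divide, as plasmablasts, and later leave the cell cycle.

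The sorts were checked against markers. The mean log2 signal of 6 germinal centre markers was 9.41 to 9.78 on GC arrays, 6.19 to 7.15 on PC arrays and 5.60 to 6.01 on naive arrays. Sdc1, which encodes the sort marker CD138, lay between 8.04 and 9.12 on PC arrays and between 4.44 and 5.27 on GC arrays. The mean of 8 plasma cell markers was 7.61 to 8.28 on IgE GC arrays, against 7.15 to 7.37 on GFP+ and 7.41 to 7.63 on GFP- IgG1 GC arrays and 10.27 to 11.09 on PC arrays. Cd86 was 8.97 to 9.35 in DZ arrays and 10.22 to 10.48 in LZ arrays. The transcript of the other zone marker, Cxcr4, overlapped, at 11.0 to 11.51 in DZ arrays and 10.6 to 11.18 in LZ arrays. In mean correlation with the other arrays of its group, naive replicate 1 was the lowest naive array, at 0.892 (the others 0.909 and 0.910). GFP+ IgG1 GC replicate 3 was the lowest of its group, at 0.949 (the others 0.962). The IgG1 PC arrays correlated with each other at 0.934, lower than that GC array. Naive replicate 1 and GFP+ IgG1 GC replicate 3 are the arrays that stood apart, and counts without both are given with the alternatives.

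Many mitotic genes share promoter letters, so their promoters are shown before their levels. The cell-cycle genes homology region, with the letters TTTGAA, is the element through which the DREAM and MuvB complexes hold such genes off in resting cells and turn them on late in the cycle, and CCAAT boxes near it bind the factor NF-Y. In RefSeq promoter windows of 300 bases (assembly GRCm38.p6, 250 bases before the transcript start to 50 after it), TTTGAA was found on either strand (as TTTGAA or TTCAAA) in 29 of the 43 members that had a window, or 67.4%. Among 9607 other genes tested on the arrays it was found in 13.9%, and among all 27018 genes with a window in 20.2%. CCAAT, on either strand (as CCAAT or ATTGG), was found in 69.8% of the members, against 41.8% and 41.1%. At least 2 CCAAT were found in 41.9% of members, against 16.0% and 13.3%. Both kinds of letters, which can share at most 1 base, were found in 55.8% of members, against 5.56% and 7.97%. A match is a run of letters and not a shown binding site.

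The first 5 sequences below are from genes that were higher in the dark zone, and the last 3 from genes that were not called there, so that a reader can compare them. Each is 30 bases, read 5' to 3' on the strand of the gene, with TTTGAA in capitals. They lie at chr1:189688067-189688096 (minus strand, Cenpf), chr7:122159453-122159482 (plus, Plk1), chr4:118437344-118437373 (minus, Cdc20), chr9:70421533-70421562 (minus, Ccnb2) and chr5:30666890-30666919 (plus, Cenpa). The last 3 lie at chr10:69352910-69352939 (minus, Cdk1), chr5:45669883-45669912 (plus, Ncapg) and chr2:69206172-69206201 (minus, Spc25).
Cenpf: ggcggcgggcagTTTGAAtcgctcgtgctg
Plk1: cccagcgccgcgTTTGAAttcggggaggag
Cdc20: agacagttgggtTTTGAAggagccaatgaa
Ccnb2: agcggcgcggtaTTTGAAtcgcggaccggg
Cenpa: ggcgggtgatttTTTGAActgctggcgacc
Cdk1: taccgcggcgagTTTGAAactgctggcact
Ncapg: ccgcgatagttgTTTGAAaactctggcgct
Spc25: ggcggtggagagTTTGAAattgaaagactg
All 8 printed stretches lay close to the annotated start, but they were picked from a longer list of matches. The first capital stood 30 bases before it in Ncapg, 18 in Cdc20 and 15 in Cdk1. In Cenpf, Ccnb2, Cenpa, Spc25 and Plk1 it stood 2, 4, 16, 24 and 30 bases after it. Matches that are not printed lay farther off. Counted from the start, Kif2c had one at -103, Ccnb2 also at -167, Cdk1 also at -71 and Kif15 at -234. The printed set therefore does not show where the letters lie in the members as a whole. The letters did not part the members by zone: 16 of 23 members called higher in the dark zone held TTTGAA, and 13 of 20 not called.

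The first question was how far mitotic transcripts rise when B cells enter the germinal centre. Every one of the 51 members rose in each of the 3 GC groups against naive cells (limma, adjusted p under 0.05 over 12098 genes). Of all genes tested, 19.3% were called higher in IgE GC cells, 16.8% in GFP+ IgG1 GC cells and 20.5% in GFP- IgG1 GC cells. The median log2 difference over the members was 3.35, 3.25 and 3.28 in that order, where that over all genes tested was 0.06, 0.02 and 0.07. The 3 comparisons share the naive arrays and are not independent. The signal was over 2-fold higher for all 51 members in all 3. These counts and medians are a description, since many members passed the filter on dim genes through the GC and PC arrays.

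On naive arrays most members were no brighter than a typical probe set. The median over the members was 5.07 to 5.32 there, and the median of all probe sets on the 30 arrays 5.28 to 5.47. Of the 51, 25 lay above the array's median on no naive array and 10 on all 3, while all 51 did so on every GC and PC array. A dim signal holds little but background, so differences from naive cells understate any gene that was silent there. In a pool of cells, fewer cells of a type and less RNA per cell cannot be told apart.

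**Figure D1:**
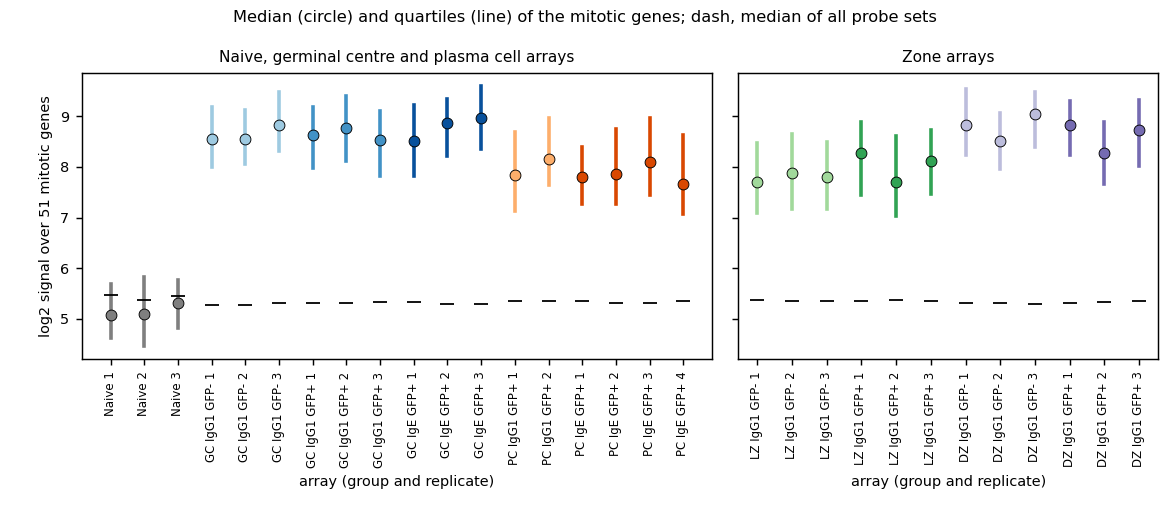
Median (circle) and quartiles (line) of the log2 signal over 51 mitotic genes on each array, with the median of all probe sets as a dash. Naive arrays sit at 5.07 to 5.32, GC arrays at 8.51 to 8.97 and PC arrays at 7.66 to 8.16; in the other panel DZ arrays span 8.27 to 9.04 and LZ arrays 7.71 to 8.28.

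Mki67, the proliferation antigen Ki-67 that coats mitotic chromosomes, was dim in naive cells and bright in GC cells. Its log2 signal was 4.87, 4.89 and 4.97 on the naive arrays and 10.98, 10.99 and 10.96 on the IgE GC arrays. Replicates lay within 0.1 of each other and the groups were far apart: the difference of the signals was 6.06 ± 0.12 (SE). Top2a, the topoisomerase that untangles sister chromatids, differed by 5.48 ± 0.25. Both lay under the array's median on all 3 naive arrays, so no level in naive cells, and no exact fold, can be given. The same holds for Cdk1, Cdc25c, Bub1, Cenpe, Kif11 and Prc1 below. Ccna2, Ccnb2 and Plk1 exceeded the array's median on only 1 naive array, so their folds are not exact either. The 6 chromosome structure genes had a median of 4.16, and the condensin subunit Smc4 differed by 2.11 ± 0.17, where its naive level was already 7.75 to 8.41.

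Among the cyclins and CDK1 regulators, Ccna2 (cyclin A2) differed by 4.97 ± 0.33, Ccnb2 (cyclin B2) by 4.91 ± 0.28 and Cdk1 itself by 3.76 ± 0.20. The phosphatase genes Cdc25c and Cdc25b differed by 2.43 and 1.89. Of the kinases, Plk1 (Polo-like kinase) was at 4.77, 5.13 and 5.51 on naive arrays and at 9.48, 9.41 and 9.93 on IgE GC arrays, with no overlap. Aurka, the Aurora kinase of the spindle poles, differed by 2.25 ± 0.27 and Plk4, which licenses centriole duplication, by 2.43 ± 0.22.

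In the spindle checkpoint, Bub1, a kinase at the kinetochore, differed by 5.18 ± 0.30. Bub3, its binding partner, differed by 1.60 ± 0.29, and its naive level was 6.80 to 8.29. Of the kinetochore genes, Cenpe, a motor that carries chromosomes to the spindle equator, differed by 4.83 ± 0.18, and Cenpa, the histone variant that marks the centromere, by 1.90 ± 0.24. Kif11, the motor that pushes spindle poles apart, differed by 4.98 ± 0.25. Prc1, which bundles the midzone, by 4.35 ± 0.20.

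Single naive arrays were high for a few members. Cdc20, the activator of the anaphase-promoting complex, was at 8.09, 5.94 and 5.79 on naive replicates 1, 2 and 3, and at 8.44, 8.77 and 8.05 on the GFP+ IgG1 GC arrays. That was the overlap of 1 member with naive cells in this comparison. On naive replicate 3, Pttg1 (securin) was at 7.44, Aurkb at 7.80 and Ccna2 at 6.55, against at most 6.36, 6.27 and 4.92 on the other naive arrays. Their part in the results was not tested beyond leaving arrays out, which kept all 51 calls in each GC comparison. Markers of other cells differed too. The mean of 6 natural killer cell markers was 4.35 to 4.77 on naive arrays and 3.81 to 3.98 on GC arrays, and of 9 stromal and endothelial markers 5.58 to 5.97 and 5.24 to 5.54, with no overlap. The mean of 7 T cell markers was 5.24 to 5.94 on naive arrays and 4.77 to 5.52 on GC arrays, and of 10 macrophage and dendritic cell markers 5.20 to 5.64 and 4.92 to 5.20, and their part was not tested.

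**Figure D2:**
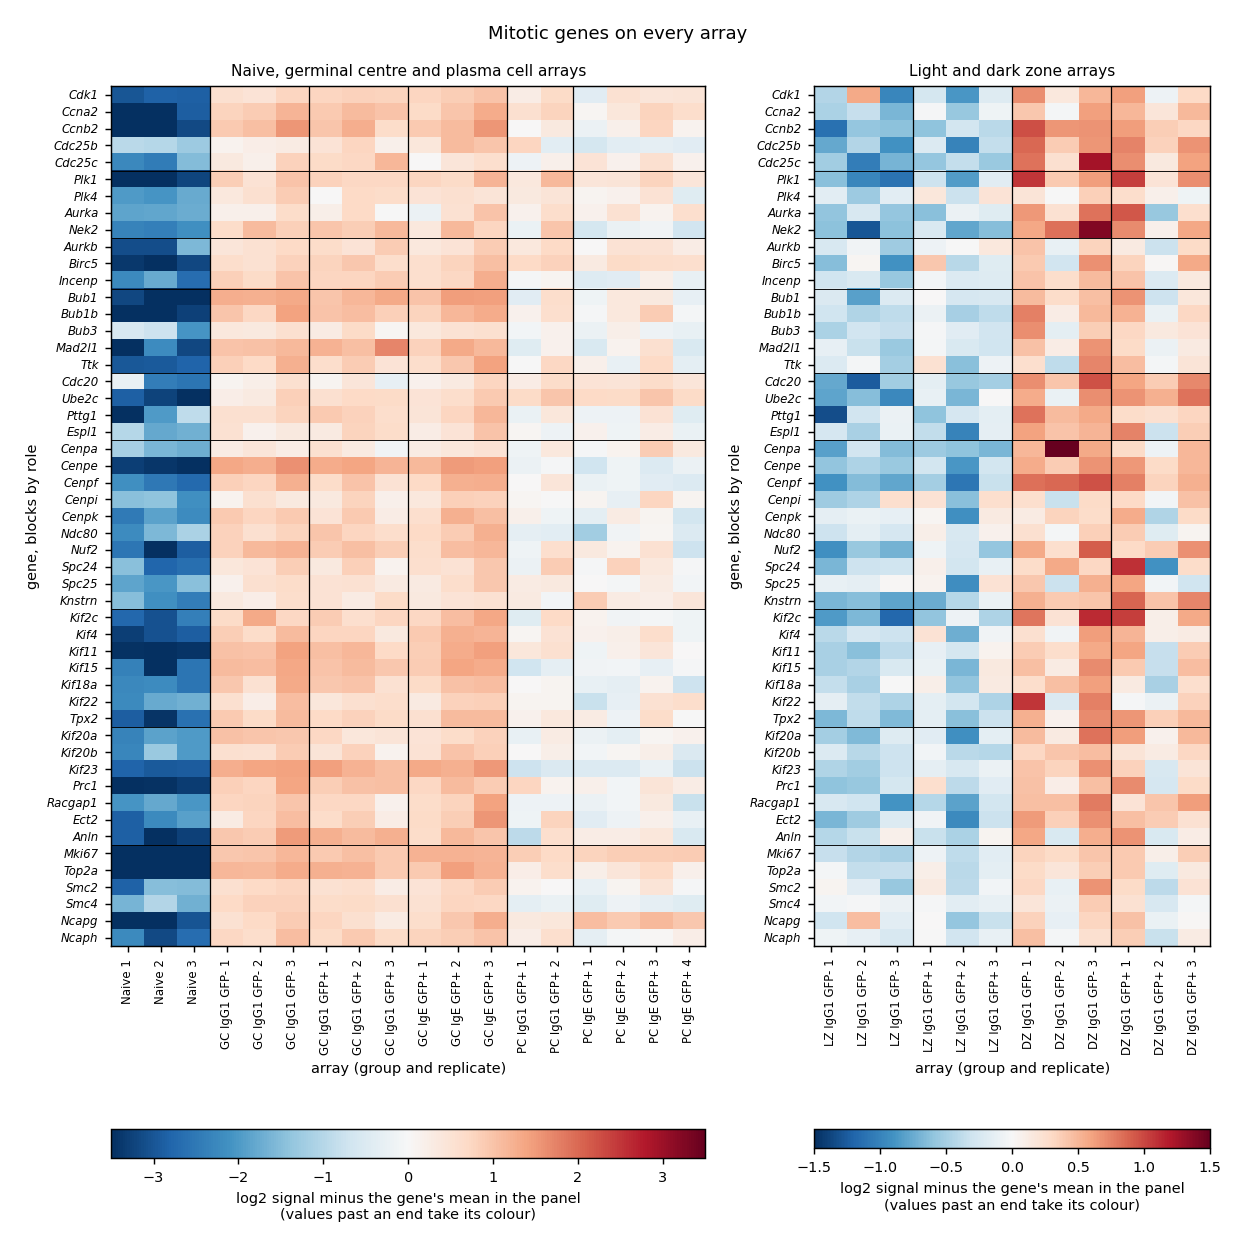
Heat maps of 51 mitotic genes (rows, in blocks by role) on every array (columns), as log2 signal minus the gene's mean within the panel; red is above that mean and blue below, and each panel has its own scale. In the first panel naive arrays are blue for all genes and PC arrays paler than GC arrays for most; in the other panel DZ arrays are mostly red and LZ arrays mostly blue.

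The other mitotic genes, 109 listed by complex, moved less far as a whole. Members and lists were chosen with earlier results of these data known, so this contrast is only a description. Of 106 with a probe set, all tested, 83 were higher in IgE GC cells than in naive cells and 0 lower, with a median of 1.72. Of 28 further kinetochore genes, 24 were higher, led by Knl1, the scaffold that binds the checkpoint kinases (5.00 ± 0.26). Hmmr, a spindle pole protein, differed by 4.93 ± 0.20 and Cdca3 by 4.13 ± 0.17. Of the 17 genes of the anaphase-promoting complex and its regulators only 9 were higher (median 0.88), and of 8 centriole genes 4 (median 0.82).

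The next question was whether IgE and IgG1 germinal centre cells differ in mitotic transcripts. No member was called between IgE and GFP+ IgG1 GC cells, between IgE and GFP- IgG1 GC cells, or between GFP+ and GFP- IgG1 GC cells (limma). The share of all genes called was 0.0% in each. At an unadjusted p under 0.05 stood 264, 205 and 265 genes in that order, of which 1 member in each: Kif4 (0.50 higher in IgE), Cdc25b (0.61 higher in IgE) and Kif20a (0.45 lower in GFP+). The median over members was 0.13, 0.06 and -0.08, and the single differences ran from -0.50 to 0.50, from -0.33 to 0.61 and from -0.45 to 0.41. With a median SE of 0.25 and 3 arrays a group, small differences could not be resolved. In simulated arrays the fit called 55% of log2 changes of 1 between IgE GC and naive cells, also 3 arrays each. Even 2-fold differences could thus be missed. Plk1 gives an example of the overlap: 9.48, 9.41 and 9.93 in IgE, 9.53, 9.45 and 9.46 in GFP+ IgG1 and 9.59, 9.25 and 9.73 in GFP- IgG1 GC cells.

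Plasma cells were then set against naive cells, to ask how much of the mitotic programme they held. All 51 members were higher in IgE PC and all 51 in IgG1 PC than in naive cells, where 23.0% and 17.1% of all genes were called higher. The median difference was 2.48 and 2.65. Here too the counts and medians are a description, since many members passed the filter on dim genes through the GC and PC arrays. The IgE PC count was 50 under several alternatives, among them further quantile normalization and centring. Mki67 stood at 10.53, 10.61, 10.62 and 10.65 on the IgE PC arrays, above every naive array by more than 5 log2 units; its naive signal lay under the array's median, so no exact fold is given. The smallest difference in IgE PC was that of Cdc25b at 0.64 ± 0.23 (adjusted p = 0.0389). Ndc80 overlapped, at 6.55 to 7.82 in IgE PC and 5.56 to 6.66 in naive cells.

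Against germinal centre cells of the same isotype, IgE plasma cells had less of many mitotic transcripts but not of all, and fewer were called in IgG1 cells. In IgE cells 30 of 51 members were lower in PC and 0 higher, where 13.4% of all genes were called lower and 10.2% higher. The median was -0.81 over the members and -0.03 over all genes. In GFP+ IgG1 cells 11 of 51 were lower and 0 higher, where 13.1% of all genes were called lower and 8.32% higher, with medians of -0.46 and -0.01. The IgG1 share rests on 2 PC arrays. It fell to 6 of 51 without GFP+ IgG1 GC replicate 1 and to 7 without its replicate 2. Of all 12098 genes, 1192 and 1226 were called lower in those fits, so the IgG1 share then lay near that of all genes. Without IgG1 PC replicate 1, which leaves 1 PC array, the median over the members was -0.36. Germinal centre and plasma cell markers differed between the same arrays, as the sort intends. Markers of other cells also moved. The mean of 7 neutrophil and eosinophil markers was 4.91 to 4.99 in IgG1 PC and 4.35 to 4.52 in GFP+ IgG1 GC, that of 6 natural killer cell markers 4.08 to 4.40 and 3.82 to 3.98, and that of 7 T cell markers 4.96 to 5.37 and 4.77 to 4.86, with no overlap. In IgE PC and IgE GC they were 4.61 to 5.12 and 4.28 to 4.69, 3.86 to 4.09 and 3.81 to 3.93, and 4.76 to 4.93 and 4.78 to 5.52, all overlapping. The mean of 2 erythroid and platelet markers was 4.64 to 5.34 in IgE PC and 4.43 to 4.61 in IgE GC, with no overlap. In IgG1 PC and GFP+ IgG1 GC it was 4.87 to 5.03 and 4.61 to 4.93, overlapping. Their part in the results was not tested.

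Kif23, the motor of centralspindlin, the complex that organises the midzone for cytokinesis, was at 9.61, 9.54 and 9.79 on IgE GC arrays and 7.81, 7.82, 8.06 and 7.54 on IgE PC arrays. In IgG1 cells it was at 9.71, 9.49 and 9.33 in GC and 7.55 and 7.78 in PC. The groups did not overlap in either isotype, and the difference was -1.84 ± 0.15 and -1.85 ± 0.18 (adjusted p = 9.73e-08 and 9.6e-07). Racgap1, its partner in that complex, fell by 1.14 in IgE cells and differed by -0.72 in IgG1 cells without a call. Ect2, which centralspindlin recruits to start the contractile ring, fell by 1.19 in IgE and differed by -0.26 in IgG1 cells. Of the 7 midzone and cytokinesis genes, 6 fell in IgE PC and 2 in IgG1 PC.

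Cenpe fell in both isotypes as well. It was at 8.83, 9.19 and 9.11 on IgE GC arrays and 7.0, 7.53, 7.22 and 7.48 on IgE PC arrays, a fall of 1.74 ± 0.16. In IgG1 cells it was at 8.99, 9.08 and 8.88 in GC and 7.49 and 7.65 in PC, a fall of 1.41 ± 0.20. Every PC array lay more than 1 log2 unit under every GC array. Of the 10 kinetochore genes 5 fell in IgE PC (also Cenpf and Ndc80, each by 1.38, Cenpk and Spc25), and 2 in IgG1 PC (Cenpe and Ndc80, by 1.12).

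Most kinesins and checkpoint genes also fell in IgE PC. Of 7 kinesin and spindle assembly genes 6 fell in IgE PC, with Kif15 (a motor that backs up Kif11) at -1.34 ± 0.24 and Tpx2 (which activates Aurora A) at -0.74 ± 0.22 as the largest and smallest, and Kif22 at -0.63 not called. In IgG1 PC only Kif15 (-1.52 ± 0.29) and Kif18a (-0.77 ± 0.26) fell, and the Kif18a call held in 5 of 14 alternatives. Of 5 checkpoint genes 4 fell in IgE PC and 2 in IgG1 PC. Mad2l1, the inhibitor of CDC20, fell by 1.19 and 1.47, and Bub1 by 1.22 and 1.04. The Mad2l1 call held in 11 of 15 alternatives in IgE and 11 of 14 in IgG1 cells. In IgG1 cells the Bub1 call held in 7 of 14, and the Bub1 signal was at 7.13 and 8.12 on the PC arrays.

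None of the 4 anaphase genes was called in either isotype. Ube2c, the enzyme that loads ubiquitin for the anaphase-promoting complex, was at 9.51, 9.65 and 9.94 on IgE GC arrays and 9.74, 9.70, 10 and 9.70 on IgE PC arrays. Cdc20 was at 8.51, 8.65 and 9.11 and at 8.83, 8.79, 8.99 and 8.76. Both pairs of groups overlapped. The differences were 0.08 ± 0.21 and 0.09 ± 0.39 in IgE, and 0.18 ± 0.26 and 0.39 ± 0.47 in IgG1 cells, so for Cdc20 the error leaves room for a change either way. Pttg1 (-0.87 ± 0.43 in IgE, -0.70 in IgG1) and Espl1, separase (-0.57 ± 0.22 and -0.64), were not called, though their means were lower. In IgG1 cells their groups did not overlap. That held for 31 of 51 members there, while 11 were called, and the share of all genes was not counted. Pttg1 was at 8.94 to 9.25 in GC and 8.09 and 8.73 in PC, and Espl1 at 7.30 to 7.76 and at 7.04 and 6.80.

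Several mitotic kinases also showed little difference. Plk1 differed by -0.35 ± 0.21 in IgE and 0.00 ± 0.25 in IgG1 cells, Aurka by -0.11 ± 0.25 and 0.10 ± 0.30, and Aurkb, the kinase of the chromosomal passenger complex, by -0.25 ± 0.29 and -0.14 ± 0.35. Within that complex Birc5 (survivin) differed by -0.26 and -0.03, while Incenp, its scaffold, fell by 1.07 and 0.78. The Incenp call in IgG1 cells held in only 4 of 14 alternatives. Nek2, a kinase that splits the centrosomes, was the one of 4 entry kinases that fell in IgE PC (-1.15 ± 0.25). Its IgG1 PC arrays disagreed, at 7.19 and 8.38.

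Condensin, the ring that compacts chromosomes, was uneven as well. Smc4 was at 9.97, 10.19 and 10.15 on IgE GC arrays and 9.01, 9.26, 9.12 and 9.01 on IgE PC arrays, and fell by 1.00 ± 0.15 in IgE and 0.91 ± 0.19 in IgG1 cells. Ncaph fell by 0.91 ± 0.20 in IgE cells. Smc2 (-0.64 ± 0.26) and Ncapg (0.07 ± 0.25) were not called. Mki67 fell by 0.37 ± 0.12 in IgE cells, the smallest difference among the 30 calls, and differed by -0.20 ± 0.14 in IgG1 cells. Among the cyclins and their regulators, Cdc25b (-1.26 ± 0.23), Ccnb2 (-0.98 ± 0.26) and Cdk1 (-0.61 ± 0.19) fell in IgE PC, and Cdc25c (-0.86 ± 0.28) in IgG1 PC. The Cdc25c call held in 6 of 14 alternatives.

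**Figure D3:**
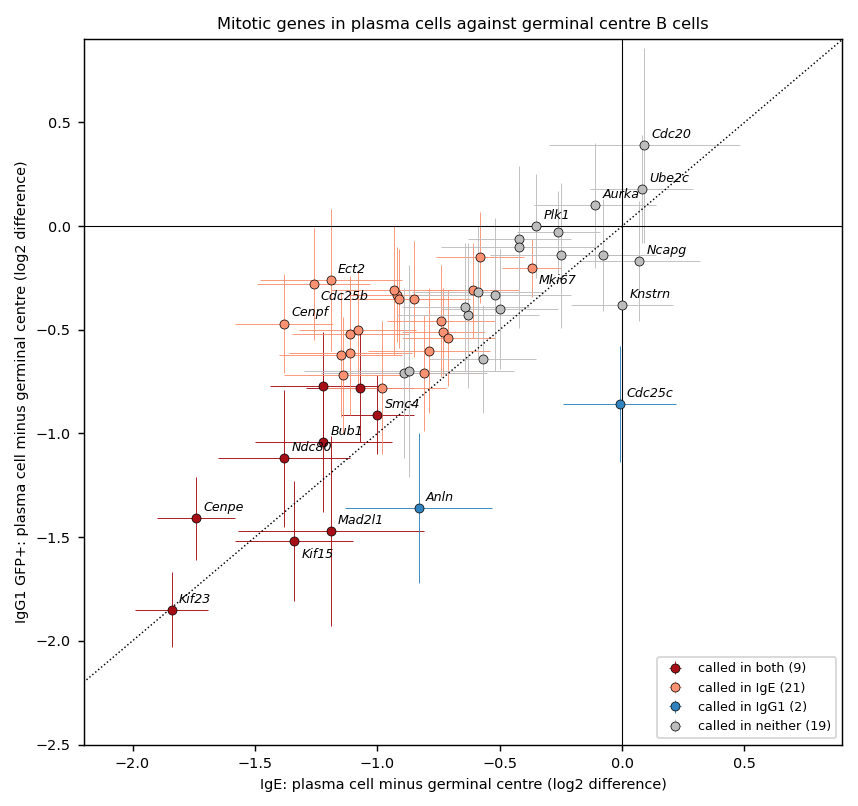
Log2 difference between plasma cells and germinal centre cells for 51 mitotic genes, in IgE cells (x axis) and GFP+ IgG1 cells (y axis), with SE bars; the dotted line marks equal differences and colour marks the calls. Kif23 and Cenpe lie far down the diagonal in both isotypes, while Cdc20, Ube2c and Aurka lie near 0.

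The isotypes ordered the members alike. The 2 comparisons share no array, and across the 51 genes, which are not independent replicates, their differences correlated at Pearson r 0.73 and Spearman rho 0.69. The 9 members called in both (Bub1, Cenpe, Incenp, Kif15, Kif18a, Kif23, Mad2l1, Ndc80 and Smc4) were 30% of the IgE calls and 81.8% of the IgG1 calls. Whether the fall was larger in IgE was tested as an interaction. It called 0 of 51 members (limma, smallest adjusted p = 0.528) and 0.0909% of all genes. At an unadjusted p under 0.05 stood 822 of all 12098 genes, and 3 of the 51 members. The 3 members were Cenpf (-0.91 ± 0.31), Cdc25b (-0.97 ± 0.36) and Cdc25c (0.85 ± 0.36, the other way). The median interaction was -0.23 over the members and 0 over all genes, and 42 of 51 members lay below 0. The share below 0 was not counted over all genes, and all members rest on the same 2 IgG1 PC arrays. With 1 array left out, the members' median ran from -0.40 to -0.10. A larger fall in IgE cells was thus not shown.

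IgE and IgG1 plasma cells were also compared directly, and 0 of 51 members were called (limma, 0.959%, or 116, of all genes). At an unadjusted p under 0.05 stood 1575 of all 12098 genes, and 4 of the 51 members. The 4 members were Nek2 (-0.77 ± 0.28), Cdc25b (-0.62 ± 0.26), Ncapg (0.66 ± 0.28) and Cenpf (-0.54 ± 0.23), as IgE minus IgG1. Nek2 was called without IgG1 PC replicate 1 (-1.37, adjusted p = 0.0236), and Cdc25b without IgG1 PC replicate 2 (-1.18, adjusted p = 0.0459). Each turns on an IgG1 PC pair that disagreed: Cdc25b was at 8.88 and 7.76 there.

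Of the 106 other mitotic genes, 38 were lower and 2 higher in IgE PC than IgE GC cells (median -0.47), and 25 lower and 1 higher in IgG1 cells (median -0.46). Spag5, a spindle protein, fell by 2.12 ± 0.21 in IgE and 1.54 ± 0.25 in IgG1 cells. The cohesin acetylase Esco2 fell by 1.86 and 1.23, and the kinetochore protein Cenpt by 1.81 and 1.48. Of 13 cohesin genes 8 and 7 fell. Fbxo5, an inhibitor of the anaphase-promoting complex, fell by 1.5 in IgE cells, and of the 17 genes of that complex only Fbxo5 and Anapc11 were called in IgE and 0 in IgG1. The genes that rose were Nek7 (0.87 ± 0.24) and Zw10 (0.66 ± 0.15) in IgE, and Cdc25a, the phosphatase of S phase entry, in IgG1 cells (1.00 ± 0.35, adjusted p = 0.0498).

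The second experiment asked where in the germinal centre the mitotic transcripts lie. All 51 members had a higher mean in the dark zone than in the light zone over both GFP fractions, and 28 of 51 were called higher and 0 lower (limma, 11050 genes tested). Of all genes tested 3.92% were called higher and 3.0% lower. The median difference was 0.62 over the members and 0.00 over all genes. The changes were modest: 13 members differed by at least 2-fold, and for 19 the 6 DZ arrays all lay above the 6 LZ arrays. The shares of all genes that did so were not counted, so both counts only describe the members. T cell markers had a mean of 4.92 to 5.79 on DZ arrays and 5.50 to 5.97 on LZ arrays, and stromal and endothelial markers one of 5.20 to 5.54 and 5.49 to 5.66, and their part was not tested.

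Cenpf, a kinetochore protein that accumulates in G2, differed most. It was at 8.28, 7.86 and 8.06 on DZ GFP+ and 8.35, 8.39 and 8.48 on DZ GFP- arrays, against 7.01, 6.44 and 7.19 on LZ GFP+ and 6.62, 6.87 and 6.74 on LZ GFP- arrays. All DZ arrays lay above all LZ arrays, and the difference was 1.42 ± 0.13 (2.68-fold, adjusted p = 0.000142). In the NDC80 complex, which grips the microtubule, Nuf2 was called (1.03 ± 0.14), while Ndc80 (0.27 ± 0.12), Spc24 (0.54 ± 0.26) and Spc25 (0.29 ± 0.22) were not. Cenpa (1.20 ± 0.21), Knstrn (1.13 ± 0.12) and Cenpe (1.01 ± 0.12) were called, and the inner kinetochore genes Cenpi (0.30) and Cenpk (0.37) were not.

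Entry and exit regulators followed. Plk1 was at 9.90, 9.06 and 9.56 on DZ GFP+ and 9.93, 9.25 and 9.48 on DZ GFP- arrays, against 8.55, 8.02 and 8.69 on LZ GFP+ and 8.23, 7.88 and 7.75 on LZ GFP- arrays. No LZ array reached a DZ array, and the difference was 1.34 ± 0.18. Nek2 differed by 1.39 ± 0.18, and Aurka (0.77 ± 0.22, adjusted p = 0.0547) and Plk4 (0.27 ± 0.13) were not called. Of the cyclins and regulators, Cdc25c (1.25 ± 0.17), Cdc25b (1.22 ± 0.16), Ccnb2 (1.20 ± 0.12) and Ccna2 (0.72 ± 0.14) rose. Cdk1 (0.73 ± 0.24) was not called, and its LZ GFP- arrays ran from 7.47 to 9.01.

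All 4 anaphase genes were higher in the dark zone. Cdc20 was at 8.82, 8.60 and 8.94 on DZ GFP+ and 8.92, 8.64 and 9.18 on DZ GFP- arrays, against 8.08, 7.66 and 7.71 on LZ GFP+ and 7.45, 6.98 and 7.70 on LZ GFP- arrays. The zones did not overlap and the difference was 1.25 ± 0.15. Ube2c differed by 1.06 ± 0.16, Pttg1 by 0.91 ± 0.19 and Espl1 by 0.78 ± 0.19. These 4 were among the members not called between plasma cells and germinal centre cells, where Pttg1 and Espl1 had lower means in plasma cells.

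Of the kinesin and spindle assembly genes 3 of 7 were called: Kif2c, which takes microtubule ends apart (1.28 ± 0.19), Tpx2 (0.94 ± 0.13) and Kif11 (0.62 ± 0.15). Of the cytokinesis genes 5 of 7 were called, from Racgap1 (0.98 ± 0.15) to Kif23 (0.58 ± 0.12). The checkpoint genes Bub1b (0.70 ± 0.14), Bub3 and Mad2l1 (both 0.52) were called and Bub1 (0.57 ± 0.16, adjusted p = 0.0551) and Ttk (0.40) were not. Of the 3 members in the passenger complex, Incenp was called (0.51 ± 0.12), and Birc5 (0.57 ± 0.21) and Aurkb (0.25 ± 0.14) were not. Chromosome structure genes differed least, with a median of 0.32. Mki67 was called (0.63 ± 0.10), but Top2a (0.40), Smc2 (0.33), Ncapg (0.31), Ncaph (0.28) and Smc4 (0.14 ± 0.11) were not.

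**Figure D4:**
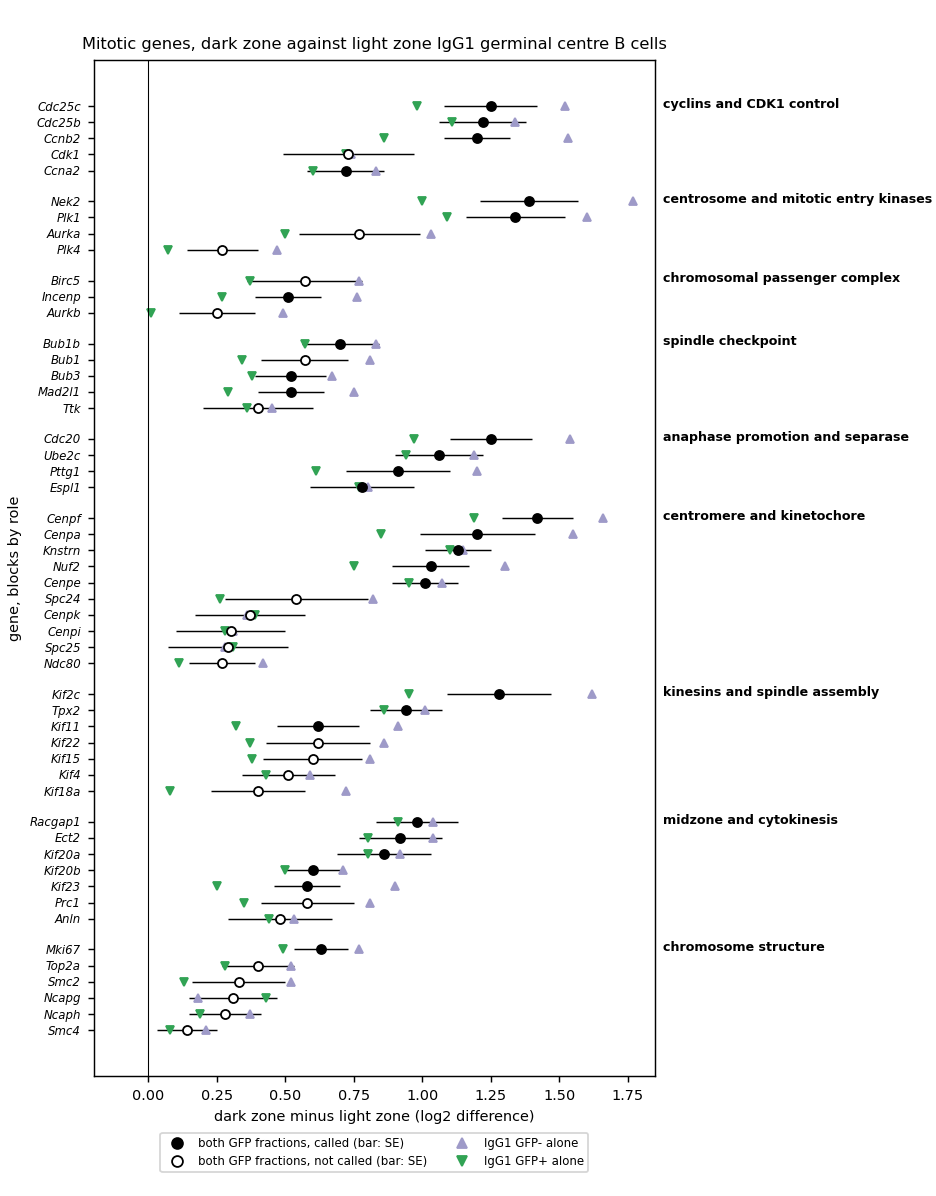
Log2 difference between dark zone and light zone for 51 mitotic genes in blocks by role: circles are both GFP fractions together with SE bars, filled where called, and triangles are the GFP- (up) and GFP+ (down) fractions alone. All circles lie above 0, with Cenpf highest at 1.42 and Smc4 lowest at 0.14.

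Split by GFP, 25 members were called in GFP- cells (1.59% of all genes higher) and 7 in GFP+ cells (0.48%). The median differences were 0.81 and 0.44. The 7 were Ccnb2, Cdc20, Cdc25b, Cenpe, Cenpf, Knstrn and Tpx2, and all were among the 25, or 28.0% of them. Across the 51 genes the differences of the fractions, which share no array, correlated at r 0.83 and rho 0.80. The interaction of zone and GFP was called for 0 of 51 members (0.0% of all genes, 543 at an unadjusted p under 0.05, 2 of them members). Of the 51 interactions 48 lay below 0, a share that was not counted over all genes. The median was -0.31 against -0.04 over all genes. The GFP fractions as a whole differed in 0 members (0.0% of all genes, 519 at an unadjusted p under 0.05, of which 1 member, Ube2c at 0.41). The count in each fraction depends on single arrays. In GFP- cells it was 14 without DZ replicate 1, 13 without DZ replicate 3, and 15 without LZ replicate 2 or 3. In GFP+ cells it was 2 without DZ replicate 1 or 3 or LZ replicate 2, 3 without LZ replicate 3, and 4 without DZ replicate 2 or LZ replicate 1.

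The other mitotic genes again moved less: 32 of 106 were higher in the dark zone and 0 lower, with a median of 0.36. As above, the contrast with the members may reflect how the lists were chosen, which was not tested. Hmmr (1.31 ± 0.22), Aspm, a spindle pole protein (1.30 ± 0.14), Cdca8, the fourth subunit of the passenger complex (1.25 ± 0.17), and Kif18b (1.12 ± 0.21) led. Of 21 further spindle and cytokinesis genes 13 were called, of 17 genes of the anaphase-promoting complex 3, of 13 cohesin genes 3, of 8 centriole genes 1 and of 4 further condensin subunits 0.

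The sizes of the zone difference and of the plasma cell difference were not related across the members. Over the 51 genes the DZ minus LZ and the IgE PC minus IgE GC differences correlated at r 0.06 and rho 0.03, and with the IgG1 plasma cell difference at r 0.12 and rho 0.06. The 17 members called in both the zone and the IgE comparison were 60.7% of the 28 and 56.7% of the 30. Plk1, Cdc20, Ube2c, Cenpa and Knstrn differed by 1.06 to 1.34 between zones and by -0.35 to 0.09 between IgE PC and GC. Smc4, Ndc80, Kif15 and Kif18a fell by 1.00 to 1.38 in IgE PC and differed by 0.14 to 0.60 between zones. Cenpe and Cenpf moved in both. These genes were picked after their values were seen.

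**Figure D5:**
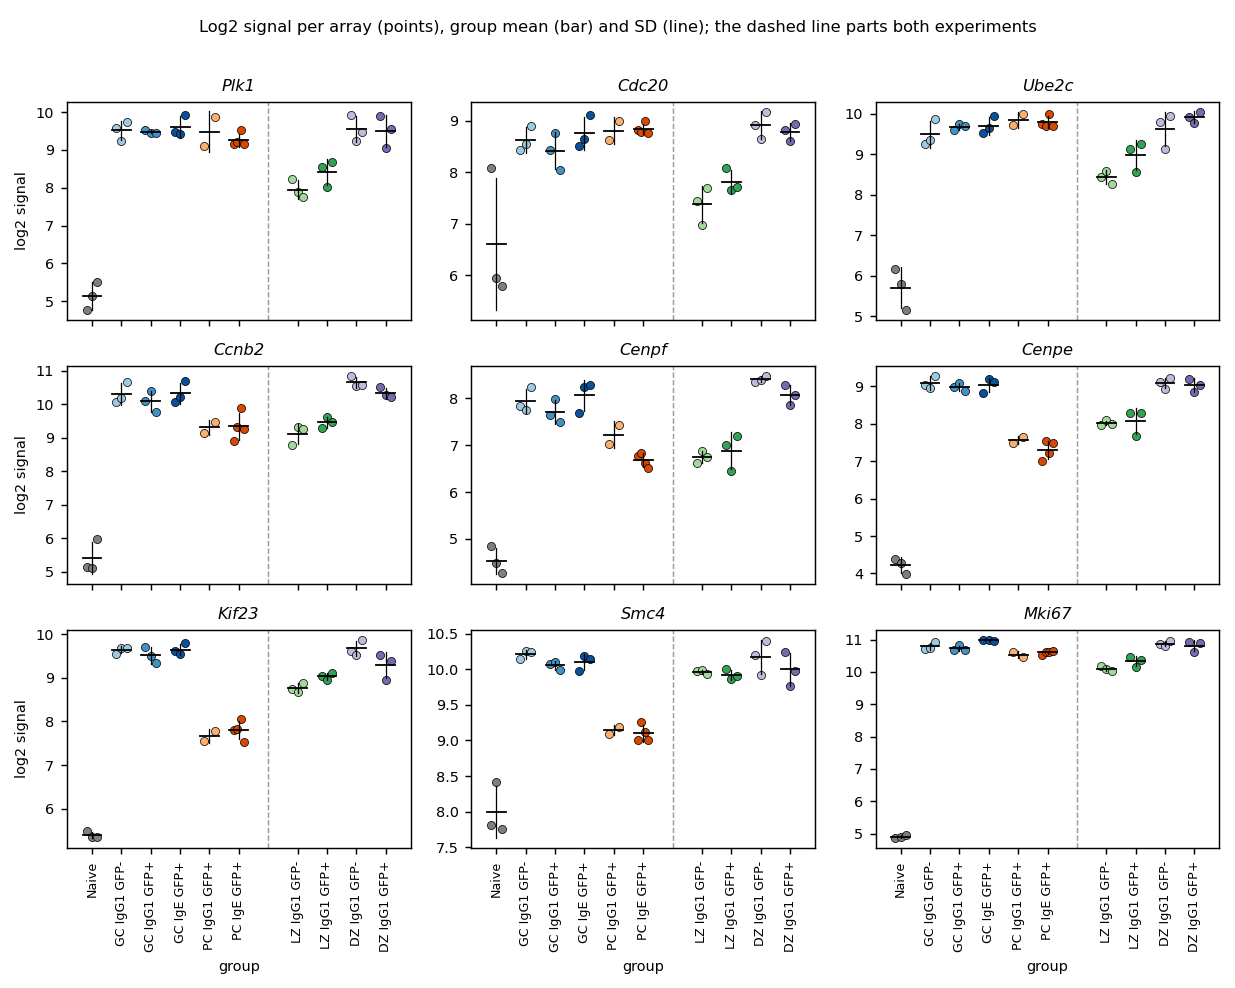
Log2 signal of 9 mitotic genes on each array (points) with group means (bars) and SD (lines); a dashed line parts the experiments, whose levels are not comparable. Plk1, Cdc20 and Ube2c overlap between GC and PC and part the zones or nearly so, Smc4 parts GC from PC but not the zones, and Cenpf and Cenpe part both. Ccnb2 parts the zones, and GC from PC only within each isotype.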

How the data were processed

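Sorted B cells were measured on 30 Affymetrix mouse gene arrays. Per the labels' protocols, cDNA was amplified from 2 ng of RNA, and 5 ug of it carried a biotin label on the array. Per the submitters' processing notes, the authors used robust multi-array averaging (RMA) under R 2.15.2, and the deposited values are log2 signals. RMA scales arrays to a like distribution, so a change in total RNA per cell cannot be seen. The sources used here name no batch and no scan date.

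The table held 34760 probe sets, of which 21640 had 1 symbol, 1321 several and 11799 none. A gene was its single-symbol probe set with the highest mean. To be tested, a gene had to exceed the array's median on 2 or more arrays in the first experiment (12098 genes did) and on 3 or more in the second (11050); all 51 members passed. Since members dim in naive cells passed through other groups, their counts against naive cells are descriptions. All arrays of an experiment were fitted with limma 3.58.1 (lmFit, eBayes; R 4.3.3), 17 contrasts in all, Benjamini-Hochberg over all genes tested, called at 0.05. The fit was tested on simulated data. Errors are SE from the fit. P-values cover the spread between pools. Figures were drawn with matplotlib 3.10.9 (python 3.11.15).

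Any member could be named; other genes were named only from fixed lists, the largest differences first. Members and lists were chosen with earlier results of these data known. Same-numbered arrays of the GFP+ and GFP- IgG1 GC groups correlated at 0.11 to 0.15 after removal of group means, so the number was also fitted as a block; it changed no call there.

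Alternatives were no filter or a stricter one, further quantile normalization, centring, the mean of a gene's probe sets, an intensity trend, the replicate block, only the groups compared, and leaving out arrays.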

Additional observations from a re-analysis of the deposited data

Results flagged for a closer look

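Among the 4 IgE PC arrays, 1 array stood far from the other 3 for 5 of 51 members, where chance gives about 1 in 20. Cdk1 was at 7.66 on replicate 1 and 8.47 to 8.58 on the others. Anln, which anchors the contractile ring, was at 6.5 on replicate 4 and 7.30 to 7.44 on the others. Bub3 was at 9.06 on replicate 2 against 8.61 to 8.68. Replicate 3 was high for Plk1 (9.52 against 9.15 to 9.2) and Ube2c (10 against 9.70 to 9.74). Groups of 2 or 3 arrays were too small for this check.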

How the results depend on the processing

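All alternatives kept the direction of every call, and none turned the count of a comparison with naive cells by more than 5 members (46 to 51 called). Without both arrays that stood apart, 51 members were called in IgE GC and 50 in IgE PC against naive cells. In IgG1 cells, PC minus GC gave 7 members with arrays centred on their median and 7 with only the groups compared; leaving out 1 array gave 6 to 10. The same gave 21 to 31 of 51 for IgE PC minus IgE GC and 23 to 34 for DZ minus LZ. In GFP+ cells, DZ minus LZ gave 11 with centring and 0 with only the groups compared (where 17 of all genes were called, and 1390 had an unadjusted p under 0.05), and 2 to 4 without 1 array; in GFP- cells that range was 13 to 23. IgE PC minus IgG1 PC gave 0 to 1. Calls that held under every alternative were 23 of 28 for the zones, 19 of 30 for IgE PC minus GC, and 4 of 11 for IgG1 (Cenpe, Kif15, Kif23 and Smc4). The replicate block gave 32 members for DZ minus LZ, 28 for IgE PC minus IgE GC and 8 for IgG1 PC minus GFP+ IgG1 GC, and moved no count of members over 1.5 times. Centring moved the median of all genes from 0.06 to -0.20 for IgE GC minus naive, and that of the members from 3.35 to 3.09. It turned the split over all genes there from 2335 higher and 895 lower to 1638 and 2439, and for IgG1 PC minus GFP+ IgG1 GC from 1007 and 1586 to 1395 and 1122, where the median of all genes went from -0.01 to 0.18 and that of the members from -0.46 to -0.28. Further quantile normalization turned that of DZ minus LZ from 433 and 331 to 356 and 410. Over all genes, the count called for IgE PC minus IgG1 PC went from 116 to 72 with the replicate block, 0 with only the groups compared (1410 at an unadjusted p under 0.05, limma), and 76 to 253 without 1 array. The isotype interaction went from 11 to 7 with centring, 5 with the block, 1 with only the groups compared and 2 to 37 without 1 array. With only the groups compared, GC minus naive went from 3230 to 2037 (IgE), 2813 to 1527 (GFP+ IgG1) and 3606 to 2061 (GFP- IgG1), IgG1 PC minus naive from 3540 to 1670, GFP+ minus GFP- IgG1 GC from 0 to 1, and DZ minus LZ from 286 to 144 in GFP- and 135 to 17 in GFP+ cells. DZ minus LZ went from 764 to 480 without LZ GFP+ replicate 2, and without 1 array to as few as 101 in GFP- and 51 in GFP+ cells. The cause was not tested. The number of arrays, 2 to 4 a group, limits precision, and dim signals in naive cells compress differences.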
